A study of Homo sapiens with 4 samples.

Results

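The 39 genes described here are the hypoxia-inducible transcription factors (HIFs), genes known as HIF targets, and the genes of glycolysis, measured by RNA-seq in H1792, a human lung cancer cell line in established culture. They were found by gene symbol, and all 39 were present among the 61228 genes counted. By role they fall into 3 HIF factor genes, 15 HIF-responsive genes outside glycolysis, 4 genes for glucose and lactate transport and for the pyruvate dehydrogenase kinase PDK1, 2 genes for the enzymes that set the level of the phosphofructokinase activator, and 15 core glycolytic enzymes. The control group held 2 libraries of cells kept for 96 h with the solvent DMSO, and the treated group held 2 libraries of cells kept for 96 h with ACBI1, both of the genotype labelled WT. The labels write the dose of ACBI1 as 1 mM, a unit that is unusual for such a compound and that the counts cannot check, and they name no change in oxygen supply. ACBI1 is a PROTAC, a molecule that brings the VHL ubiquitin ligase to the chromatin remodelling ATPases SMARCA2 and SMARCA4 and to PBRM1 so that these proteins are degraded. One cell line was used, nothing in the labels says that replicates were separate cultures, and p-values therefore measure only the spread between these libraries, which may be technical.

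VHL is also the ligase that acts on the HIFs. When oxygen is present, prolyl hydroxylases of the EGLN family mark the HIF alpha subunits, VHL binds the marked protein, and the proteasome destroys it; when oxygen is low the alpha subunits persist, pair with ARNT and bind short DNA elements near genes for angiogenesis, pH control, mitophagy and glucose use. Glycolytic enzyme genes are also driven by other factors, while genes such as CA9, EGLN3, ANKRD37 and NDRG1 are used as readouts that depend more narrowly on HIF. Messenger RNA was measured here, and HIF proteins were not analysed.

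The core of the HIF-binding element is ACGTG or GCGTG, and the stretches below are shown because their genes stand for the 3 outcomes described in the next paragraphs. All were taken from RefSeq sequences on GRCh38.p14, lie within the 250 bases before a RefSeq transcription start, and are written 5′ to 3′ on the strand of the gene. Capitals mark ACGTG or GCGTG on either strand, so that CACGT and CACGC are their complements and CACGTG counts on both strands. The first 5 belong to genes whose transcripts fell with ACBI1, from chr9:35673898-35673926 (+), chr10:72273693-72273887 (+), chr11:10304960-10304988 (+), chr2:74834063-74834092 (+) and chr17:28576915-28576944 (-).
CA9: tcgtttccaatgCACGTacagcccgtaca
DDIT4: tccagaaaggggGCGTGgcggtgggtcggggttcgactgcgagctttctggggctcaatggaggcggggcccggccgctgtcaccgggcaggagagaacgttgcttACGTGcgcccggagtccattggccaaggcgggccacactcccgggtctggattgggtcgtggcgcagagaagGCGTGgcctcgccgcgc
ADM: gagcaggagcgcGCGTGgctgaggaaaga
HK2: agccaatggGCGTGcgCACGTcactgatcc
ALDOC: aggcCACGCccccggaggagtCACGTagct

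The next belongs to EGLN1, whose transcripts rose (chr1:231422288-231422312, -), and the last 3 to genes that did not pass the test, from chr4:185396676-185396705 (+), chr11:18394471-18394499 (+) and chrX:78104025-78104081 (+).
EGLN1: gggccgtggtgtACGTGcagagcgc
ANKRD37: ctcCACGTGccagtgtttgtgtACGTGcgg
LDHA: actcaCACGTGggttcccgCACGTccgcc
PGK1: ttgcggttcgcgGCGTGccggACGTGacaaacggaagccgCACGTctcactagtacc

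These 9 stretches were chosen around matches, so that each holds the letters by construction. Stretches other than those of DDIT4 and PGK1 were cut to at most 30 bases around the matches nearest to the start. The full windows of HK2, ALDOC and LDHA before the start shown held 3, 5 and 5 matches, more than are printed. Capitals therefore do not give the number of matches per promoter. Of the 39 genes, 35 had a promoter in the RefSeq table, and 30 of them held the letters before at least 1 of their starts. At least 1 match was found for 8 of the 9 such genes called lower, for both called higher, and for 20 of the 24 not called. Among the HIF-responsive genes 11 of 12 had a match and among the core enzymes 13 of 15. Counted in the same way, before at least 1 start, 47.4% of all 27305 gene symbols had a match. A gene with more starts has more windows in which a match can occur. Counted by start, 67.8% of the 59 windows of these genes and 43.2% of all 35116 windows of the same length held a match. A match is a stretch of letters only, and binding was not measured. No promoter sequence is given for VEGFA, NDRG1, BNIP3L and SLC2A3.

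Transcripts of several HIF-responsive genes fell with ACBI1, while the core glycolytic enzymes were called about as often as genes in general. A gene was called when edgeR's quasi-likelihood test, adjusted over all 19159 genes tested, gave a p under 0.05. All 39 genes could be tested, although CA9 passed the filter on low counts only through its DMSO libraries. Of these, 12 were called lower and 2 higher, where 10.6% of all tested genes were called lower, 6.75% higher and 17.4% either way. Among the 15 HIF-responsive genes outside glycolysis, 7 fell (CA9, DDIT4, ADM, NDRG1, VEGFA, BNIP3L and CA12) and EGLN1 rose. Among the 15 core glycolytic enzymes, HK2 and ALDOC fell and PFKP rose, counts that are near the shares over all tested genes. The median log2 change was -1.35 for the HIF-responsive genes, -0.28 for the core enzymes and 0.01 over all tested genes. Log2 changes below -1 were fitted for 8 of the HIF-responsive genes and for 1 core enzyme, ALDOC. Both ACBI1 libraries lay below both DMSO libraries for 22 of the 39 genes and above them for 6, against 32.2% and 31.1% of all tested genes (63.2% either way).

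**Figure D1:**
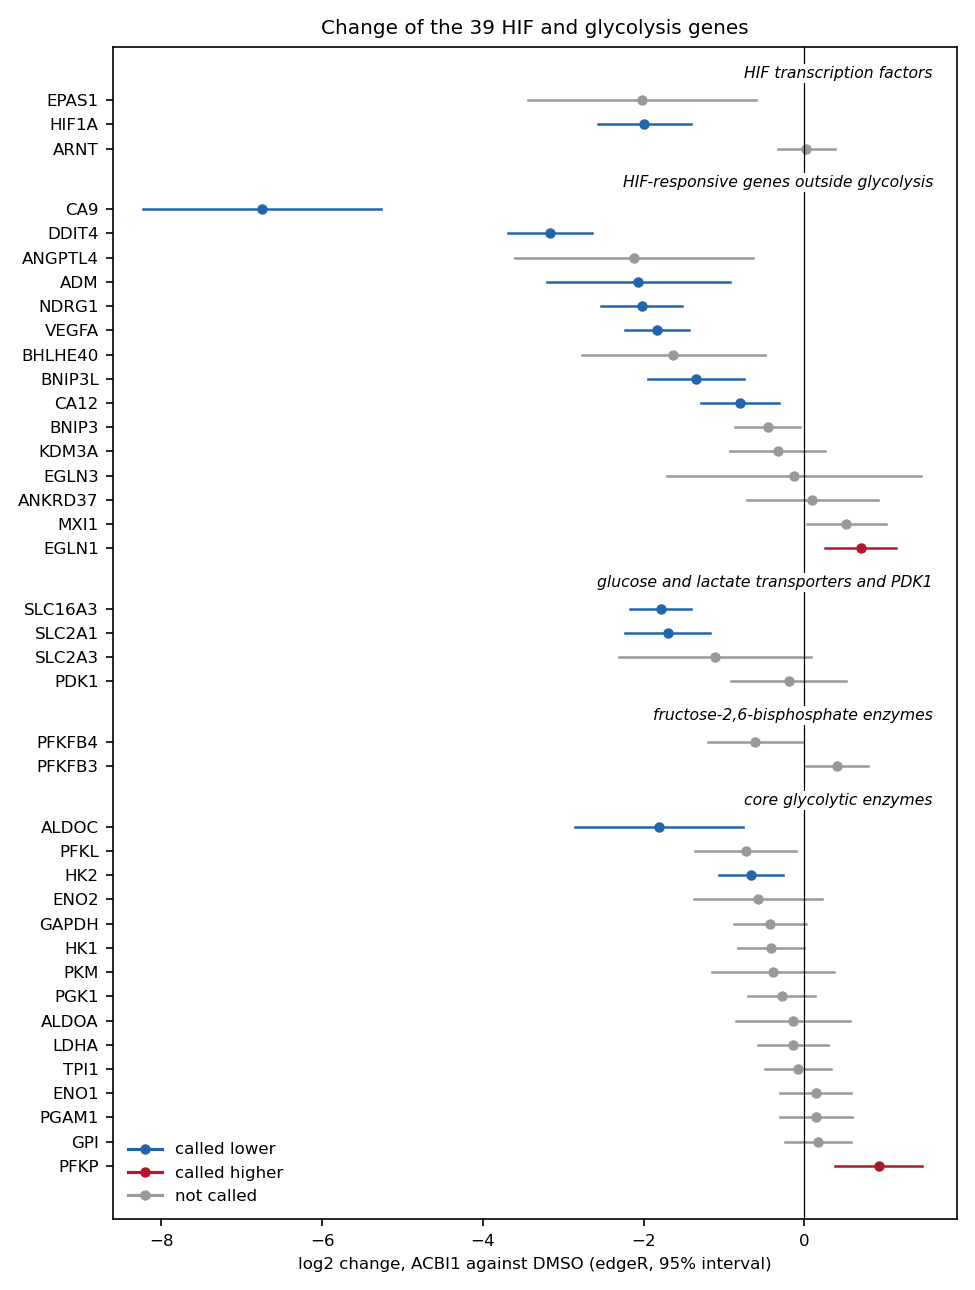
Log2 change of each of the 39 genes (horizontal axis, ACBI1 against DMSO, points) with its 95% interval (lines) from edgeR, ordered within each role. HIF-responsive genes reach from -6.75 for CA9 to 0.70 for EGLN1, whereas 14 of the 15 core enzymes lie between -0.73 and 0.93 and only ALDOC lies lower.

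The difference between both groups of genes can be followed library by library, from the same counts and not as separate evidence. Relative to each gene's mean in DMSO, the median HIF-responsive gene was at -1.13 and -1.06 on the log2 scale in ACBI1 replicates 1 and 2, and at -0.14 and 0.14 in the DMSO libraries. The median core enzyme was at -0.37 and -0.065 in the ACBI1 libraries and at 0.037 and -0.037 in the DMSO libraries. The DMSO values of a list mirror each other because they are taken from their own mean. These medians describe the lists and carry no test. Without ACBI1 replicate 1 the median change of the core enzymes was -0.067.

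Reads assigned to genes numbered between 64281850 and 86010100 per library. Of 6 epithelial markers, KRT7, KRT8, KRT18 and KRT19 were called lower, though KRT18 was not called without ACBI1 replicate 1 (-0.97). EPCAM lay the other way, at 5.38 and 2.78 CPM with DMSO and 15.6 and 4.84 CPM with ACBI1, with overlapping groups and no call (log2 change 1.32, adjusted p 0.179). Their list summed to 982 and 1035 CPM with DMSO and to 323 and 202 CPM with ACBI1, and CDH1 was at 0.0491 to 0.222 CPM over the 4 libraries, so that this defining marker was close to 0. Of the fibroblast markers, 2 of 5 were called lower, DCN, which passed the filter only through its DMSO libraries, and LUM, which was not called without ACBI1 replicate 1 (-2.61). COL1A1, COL3A1 and PDGFRB were not called, at log2 changes of -1.90, -1.47 and -1.42. All 5 fibroblast markers lay lower with ACBI1 without overlap. Over all tested genes, 10.6% were called lower and 32.2% lay lower without overlap. The list summed to 349 and 762 CPM with DMSO and to 72.4 and 226 CPM with ACBI1, with COL1A1 the most abundant. Leukocyte markers summed to at most 0.222 CPM, with CD3E at 0 counts. Endothelial markers summed to 12.6 and 48.5 CPM with DMSO and to 0.0112 and 0.0458 CPM with ACBI1, nearly all of it PECAM1, which like VWF passed the filter only through DMSO, while CDH5 was at 0 counts in both ACBI1 libraries and at most 0.0556 CPM with DMSO. The part of these markers in the changes given above was not tested, and in bulk RNA fewer cells of a type and less RNA per cell cannot be told apart.

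Among the factors, HIF1A, which encodes the widely expressed oxygen-regulated subunit, stood at 325 and 489 CPM with DMSO (read counts scaled to library size by TMM) and at 103 and 101 CPM with ACBI1. It fell by 1.99 on the log2 scale (SE 0.24, edgeR adjusted p 0.00636), and the groups lay far apart. EPAS1, the gene of a second alpha subunit, was at 24.7 and 25.9 CPM with DMSO and at 9.91 and 2.52 CPM with ACBI1. The groups did not overlap, but the ACBI1 libraries lay far from each other, and the log2 change of -2.02 (SE 0.59) missed the threshold (adjusted p 0.0636). Without ACBI1 replicate 1 the value for EPAS1 was -3.33, and EPAS1 was called lower whichever 1 library was left out (-1.36 without ACBI1 replicate 2) and by 3 of 7 other fits to all 4 libraries. ARNT, the shared partner that oxygen does not regulate, was at 48.8, 45.8, 48.3 and 48.0 CPM in the order DMSO replicates 1 and 2, then ACBI1 replicates 1 and 2. Its log2 change was 0.025, with a 95% interval from -0.33 to 0.38 that excludes a change as large as that of HIF1A. Per kb of exon, HIF1A was at 78.9 CPM and EPAS1 at 3.46 CPM with DMSO, so HIF1A transcripts were more abundant than EPAS1 transcripts in these cells.

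CA9 encodes a cell-surface carbonic anhydrase that buffers pH and is among the genes most tightly tied to HIF. Counts were 103 and 134 with DMSO, and each ACBI1 library had 1. This corresponds to 1.26 and 1.86 CPM against 0.0112 and 0.0153 CPM, so that the gene was already rare in control cells and almost absent after treatment. DMSO exceeded ACBI1 by a ratio of 120, with an exact 95% counting interval from 32.8 to 995, and the fitted log2 change of -6.75 (SE 0.61, adjusted p 0.0031) depends on the prior count. An exon of the opposite-strand gene ARHGEF39 covers 38.5% of the exonic length of CA9. CA12, a related carbonic anhydrase gene, was far more abundant, at 265 and 241 CPM with DMSO and 124 and 167 CPM with ACBI1. It fell by 0.80 on the log2 scale (SE 0.20, adjusted p 0.0442), and was not called without DMSO replicate 1 (-0.73) or without ACBI1 replicate 1 (-0.60).

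Of the secreted products, VEGFA encodes the main angiogenic growth factor and was at 356 and 362 CPM with DMSO against 96.6 and 104 CPM with ACBI1. Replicates lay close together in both groups, and VEGFA fell by 1.84 on the log2 scale (SE 0.16, adjusted p 0.00301). ADM, the gene of the vasodilator peptide adrenomedullin, was at 71.2 and 203 CPM with DMSO and at 34.9 and 30.7 CPM with ACBI1. Its fall of 2.06 on the log2 scale (SE 0.47, adjusted p 0.0332) leaned on the high DMSO replicate 2, without which the value was -1.12. ADM was still called without DMSO replicate 2, but not without ACBI1 replicate 1 (-2.16) or ACBI1 replicate 2 (-1.98). ANGPTL4, which encodes an inhibitor of lipoprotein lipase, was at 6.47 and 17.2 CPM with DMSO and at 1.58 and 3.89 CPM with ACBI1. For ANGPTL4 the log2 change of -2.12 (SE 0.61) came with an adjusted p of 0.0623 and was -1.25 without DMSO replicate 2. ANGPTL4 was called without DMSO replicate 1 (-2.66) and without ACBI1 replicate 2 (-2.92).

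**Figure D2:**
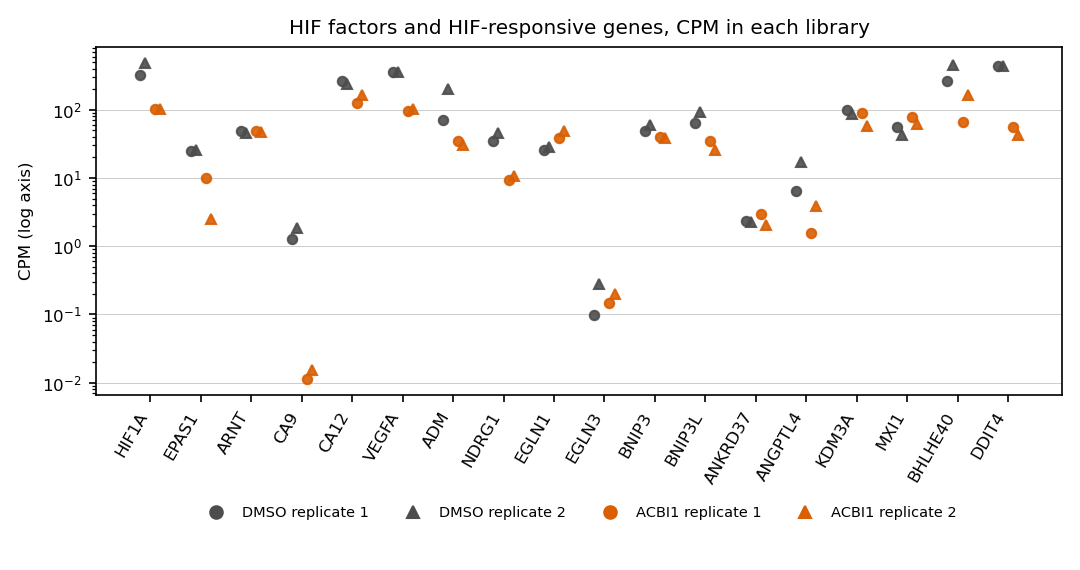
CPM on a log axis for the 3 HIF factor genes and the 15 HIF-responsive genes (horizontal axis), one symbol per library, grey for DMSO and orange for ACBI1. The ACBI1 symbols lie below both DMSO symbols for HIF1A, CA9, VEGFA, NDRG1 and DDIT4, while ARNT, ANKRD37 and EGLN3 overlap.

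DDIT4 encodes a stress-induced inhibitor of the mTOR growth pathway. It was at 440 and 444 CPM with DMSO and at 56.6 and 42.2 CPM with ACBI1, a fall of 3.16 on the log2 scale (SE 0.21, adjusted p 0.00193). In fold this was 8.94-fold lower, the DMSO replicates were almost equal, and of the 39 genes CA9 alone had a larger fitted change. DDIT4-AS1 on the other strand overlaps 41.2% of the exonic length of DDIT4. DDIT4 also responds to stresses other than low oxygen. NDRG1, a stress-responsive gene used as a marker of HIF activity, was at 35.1 and 45.8 CPM with DMSO and at 9.37 and 10.5 CPM with ACBI1. It fell by 2.02 on the log2 scale (SE 0.21, adjusted p 0.00428), about 4.06-fold, with no overlap between groups.

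The other 2 genes named as narrow HIF readouts were not called. EGLN3, the gene of the strongly inducible prolyl hydroxylase, had 8 and 20 counts with DMSO and 13 and 13 with ACBI1, or 0.0982 to 0.278 CPM over the 4 libraries. At this depth a change could not be resolved: the log2 change of -0.13 had a 95% interval from -1.71 to 1.45, and it was 0.78 without DMSO replicate 2 and 0.092 without ACBI1 replicate 1. ANKRD37, an ankyrin repeat gene, was at 2.37 and 2.29 CPM with DMSO and at 2.95 and 2.04 CPM with ACBI1. Its log2 change of 0.10 (95% interval from -0.71 to 0.91) was -0.19 without ACBI1 replicate 1, and UFSP2 on the opposite strand overlaps 35.2% of its exonic length. The interval of ANKRD37 excludes a fall as large as that of NDRG1.

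EGLN1, the gene of the main oxygen sensor among the prolyl hydroxylases, went the other way. It was at 26.1 and 28.5 CPM with DMSO and at 39.2 and 49.6 CPM with ACBI1, and rose by a log2 of 0.70 (SE 0.18, adjusted p 0.0479). The call was marginal. EGLN1 was not called by limma-voom (adjusted p 0.0555, over a range from 0.0129 to 0.0555 in 7 other fits to all 4 libraries), nor with any 1 library left out, when the value lay between 0.51 and 0.86. MXI1, which encodes an antagonist of MYC, was at 55.4 and 43.0 CPM with DMSO and at 78.9 and 62.3 CPM with ACBI1, a log2 change of 0.52 that was not called (adjusted p 0.131).

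BNIP3L and BNIP3 encode related receptors that mark mitochondria for removal. BNIP3L was at 64.4 and 91.9 CPM with DMSO and at 35.2 and 25.9 CPM with ACBI1, and fell by 1.35 on the log2 scale (SE 0.25, adjusted p 0.0183). BNIP3 was at 49.0 and 59.6 CPM with DMSO and at 40.2 and 39.03 CPM with ACBI1, a log2 change of -0.46 that was not called (adjusted p 0.114). KDM3A, a histone demethylase gene, overlapped between groups, at a log2 change of -0.33 (adjusted p 0.390); leaving out ACBI1 replicate 1 gave -0.68, and leaving out ACBI1 replicate 2 gave -0.051. BHLHE40, a transcriptional repressor gene, was at 267 and 456 CPM with DMSO and at 67.1 and 167 CPM with ACBI1. The replicates of BHLHE40 differed by more than 1.5-fold in both groups, and its log2 change of -1.63 (SE 0.47) missed the threshold (adjusted p 0.0624), although DESeq2 called it lower (adjusted p 0.00192, limma-voom 0.0527). BHLHE40 was called without DMSO replicate 1 (-1.96) and without ACBI1 replicate 2 (-2.44).

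The membrane carrier genes SLC2A1 and SLC16A3 both fell. SLC2A1, the gene of the basal glucose importer, was at 164 and 179 CPM with DMSO and at 62.0 and 43.4 CPM with ACBI1. It fell by 1.70 on the log2 scale (SE 0.22, adjusted p 0.00727). SLC16A3, the gene of the lactate exporter typical of glycolytic cells, was at 108 and 121 CPM with DMSO and at 32.5 and 33.8 CPM with ACBI1, a fall of 1.79 on the log2 scale (SE 0.16, adjusted p 0.00291). SLC2A1 and SLC16A3 changed by 3.25-fold and 3.46-fold, and no ACBI1 library overlapped a DMSO library. SLC16A1, from the pyruvate and lactate handling genes below, is named after its values were seen and was more abundant than SLC16A3. SLC16A1 was at 255 and 244 CPM with DMSO and at 158 and 183 CPM with ACBI1. Its log2 change of -0.55 was not called (edgeR adjusted p 0.0727). SLC2A3, a high-affinity glucose importer gene, was rarer, at 7.80 and 5.74 CPM with DMSO and 4.55 and 1.71 CPM with ACBI1. Its log2 change of -1.11 was not called (adjusted p 0.171), but it was -1.98 and called without ACBI1 replicate 1, and -0.58 and not called without ACBI1 replicate 2. PDK1, which encodes a pyruvate dehydrogenase kinase, was at 32.6, 20.5, 27.5 and 18.8 CPM in the order given for ARNT. Here replicate 1 was above replicate 2 in each group, and the log2 change of -0.20 (adjusted p 0.685) was 0.18 without DMSO replicate 1 and 0.042 without ACBI1 replicate 2.

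PFKFB3 and PFKFB4 encode enzymes that make and remove the allosteric activator of phosphofructokinase. PFKFB3 was at 115 and 124 CPM with DMSO and at 150 and 167 CPM with ACBI1, while PFKFB4 was at 14.1 and 14.2 CPM and at 7.76 and 10.7 CPM. Neither was called by edgeR (adjusted p 0.134 and 0.131), by DESeq2 or by limma-voom, and at an unadjusted p under 0.05 PFKFB3 was higher and PFKFB4 lower. Without ACBI1 replicate 1 the log2 change of PFKFB4 was -0.40 in place of -0.62.

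The core enzymes are given in the order of the pathway. HK1 and HK2 encode hexokinases, the first step. HK2, the inducible form, was at 114 and 95.02 CPM with DMSO and at 65.1 and 67.2 CPM with ACBI1, a fall of 0.66 on the log2 scale (SE 0.17, adjusted p 0.0432). HK2 was not called when only library size was used for scaling (adjusted p 0.0526), nor without DMSO replicate 1 (-0.52), ACBI1 replicate 1 (-0.63) or ACBI1 replicate 2 (-0.69). HK1 was at 231 and 221 CPM with DMSO and at 156 and 184 CPM with ACBI1, a log2 change of -0.41 that was not called (adjusted p 0.147). GPI, the isomerase gene, had a log2 change of 0.17 (95% interval from -0.24 to 0.58).

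At phosphofructokinase, the committing step, the isozyme genes parted. PFKP, the platelet-type form, was at 645 and 455 CPM with DMSO and at 1082 and 1007 CPM with ACBI1, and rose by a log2 of 0.93 (SE 0.22, adjusted p 0.0394). It was not called without DMSO replicate 2 (0.70), ACBI1 replicate 1 (0.88) or ACBI1 replicate 2 (0.97). PFKL, the liver-type form, was at 300 and 199 CPM with DMSO and at 172 and 128 CPM with ACBI1, a log2 change of -0.73 (SE 0.26) that missed the threshold (adjusted p 0.107) and was -0.41 without DMSO replicate 1, but -0.997 and called without DMSO replicate 2. The muscle-type gene PFKM, listed among further isozymes, fell by 0.79 on the log2 scale (adjusted p 0.0264). PFKM was not called without ACBI1 replicate 1 (-0.67) or ACBI1 replicate 2 (-0.92).

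The aldolase genes could only be compared with care. ALDOC, a form best known from brain, was at 8.52 and 15.1 CPM with DMSO and at 2.33 and 4.41 CPM with ACBI1. It fell by 1.81 on the log2 scale (SE 0.43, adjusted p 0.0375), and was not called without DMSO replicate 2 (-1.34) or ACBI1 replicate 1 (-1.42). ALDOA, normally the dominant aldolase gene of cultured cells, had 756 to 950 counts per library and 3.13 CPM per kb with DMSO, against 169 CPM per kb for TPI1 in the next step. Of the exonic length of ALDOA, 53.5% is shared with exons of further annotated genes, 42.3% with AC093512.2 on the same strand, and reads that fit several genes were left out of gene counts. ALDOA can be undercounted for this reason, and its log2 change of -0.14 (adjusted p 0.776) rests on the remaining reads.

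The later steps of the pathway held the most abundant transcripts, and no gene of them was called. GAPDH was at 3647 and 3458 CPM with DMSO and at 2744 and 2527 CPM with ACBI1, which made it the highest of the 39 per length, at 1192 CPM per kb with DMSO. Its groups did not overlap, and its log2 change of -0.43 (95% interval from -0.88 to 0.02) was not called (adjusted p 0.162). TPI1 had a log2 change of -0.080, PGK1 one of -0.28, PGAM1 one of 0.14 and ENO1 one of 0.14, with adjusted p from 0.290 to 0.783. The 95% intervals of these 4 genes lay between -0.69 and 0.60, which excludes changes as large as those of SLC2A1 or SLC16A3. ENO2, the neuronal enolase gene, was at 42.6 and 33.5 CPM with DMSO and at 33.6 and 17.2 CPM with ACBI1, a log2 change of -0.58 that was not called (adjusted p 0.267) but was -1.14 and called without ACBI1 replicate 1, and -0.185 and not called without ACBI1 replicate 2.

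PKM, the pyruvate kinase gene, was at 1964 and 2347 CPM with DMSO and at 1163 and 2124 CPM with ACBI1. ACBI1 replicate 1 was low, and the log2 change of -0.39 was -0.018 without it and -0.90 without ACBI1 replicate 2. LDHA, which encodes the enzyme that turns pyruvate into lactate and is a textbook HIF target, was at 477 and 561 CPM with DMSO and at 448 and 494 CPM with ACBI1. The groups overlapped, and the log2 change of -0.14 had a 95% interval from -0.58 to 0.30 and lay between -0.25 and -0.018 with 1 library left out. Taken as a sum, the 15 core enzymes held 10259 and 10138 CPM under DMSO, and 8577 and 9644 CPM under ACBI1. Several of these genes have processed copies in the genome, which can take reads. The named pseudogenes in the files (65 for GAPDH, 13 for PGAM1) were rare beside their parents: the most abundant single one reached 0.784% of the counts of PGAM1 and 0.037% of those of GAPDH. Reads that aligned to several places, 3.52% to 5.44% of the reads listed, were not assigned to genes. These low shares therefore cannot show how many reads the copies took.

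**Figure D3:**
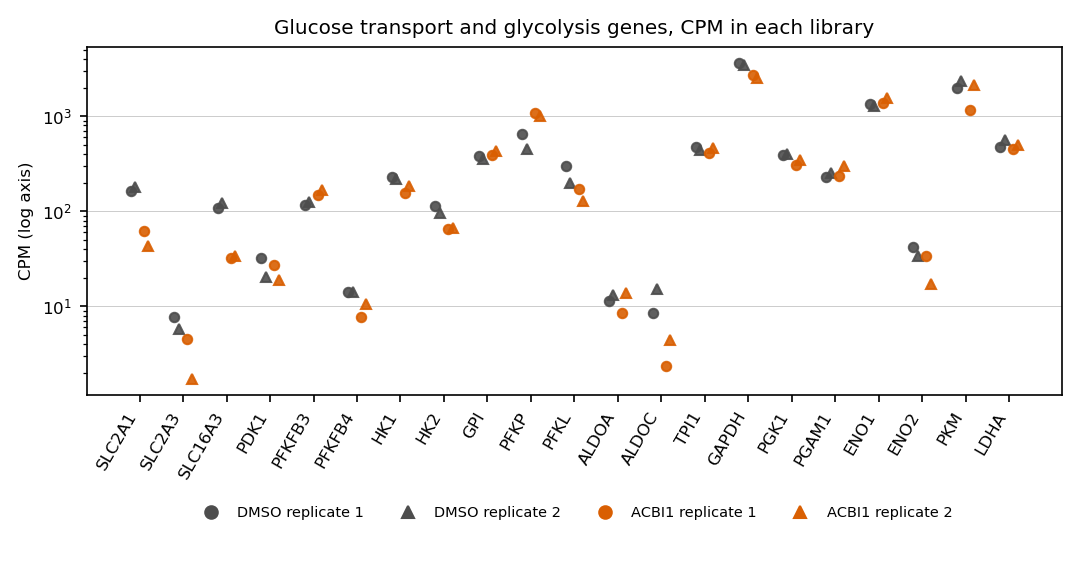
CPM on a log axis for the transporters, PDK1, the phosphofructokinase regulators and the 15 core enzymes (horizontal axis), one symbol per library, grey for DMSO and orange for ACBI1. The ACBI1 symbols lie below both DMSO symbols for SLC2A1, SLC16A3 and ALDOC and above them for PFKP, while TPI1, PGAM1 and LDHA overlap between groups. The calls of ALDOC and PFKP did not hold with every library left out.

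Ratios between related genes within a library do not depend on the scaling between libraries. Of 10 pairs, the groups did not overlap in 7, with the ratio higher in ACBI1 for 4 and lower for 3. Among single tested genes 63.2% did not overlap, and the share among other gene pairs was not computed, so nothing is read from this count. With 2 libraries against 2, an exact permutation test cannot go below a p of 0.333, so no test is given. The PFKP to PFKL count ratio was 2.15 and 2.29 with DMSO and 6.28 and 7.87 with ACBI1, a 3.17-fold difference of the mean log2 ratios. PFKFB3 to PFKFB4 went from 8.20 and 8.72 to 19.3 and 15.7, or 2.06-fold, and BNIP3 to BNIP3L from 0.762 and 0.649 to 1.14 and 1.51, or 1.87-fold. CA12 to CA9 was 209.5 and 129 with DMSO and 11098 and 10938 with ACBI1, where it rests on 1 CA9 count per library. In the other direction, ALDOC to ALDOA went from 0.754 and 1.14 to 0.276 and 0.319, and HK2 to HK1 from 0.495 and 0.430 to 0.418 and 0.366. ENO2 to ENO1 was 0.0315 and 0.0261 with DMSO and 0.0247 and 0.0111 with ACBI1, a log2 difference of -0.79 that was -0.21 without ACBI1 replicate 2. EGLN3 to EGLN1, EPAS1 to HIF1A and SLC2A3 to SLC2A1 overlapped between groups.

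**Figure D4:**
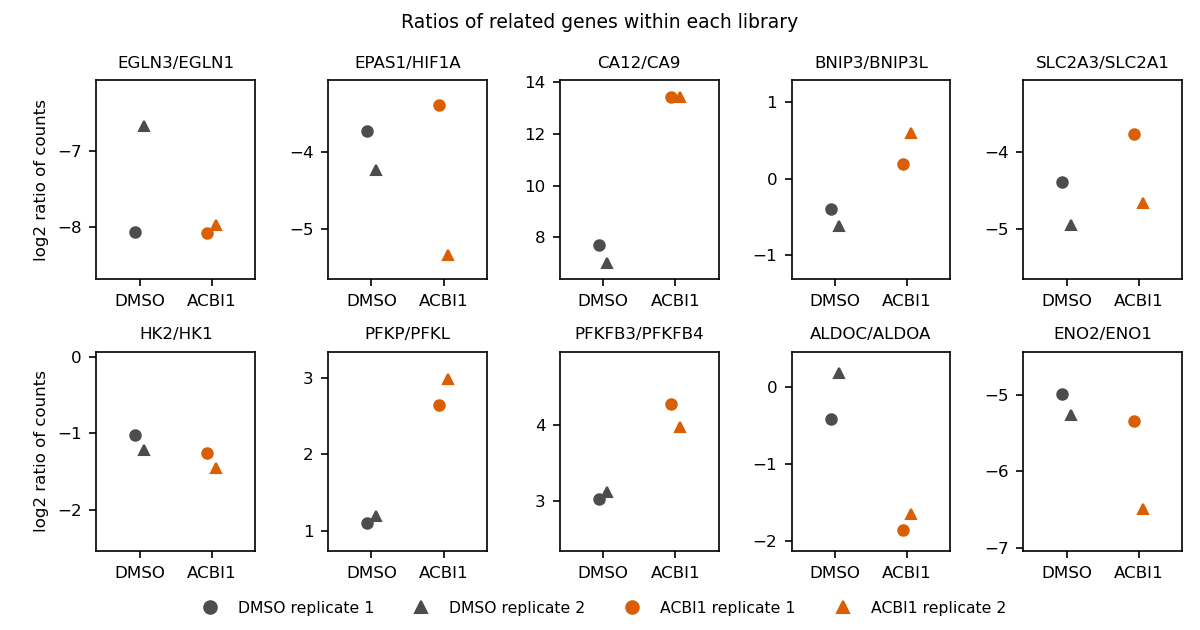
Log2 ratio of the counts of 2 related genes within each library (vertical axis, its range set per panel), one panel per pair, grey for DMSO and orange for ACBI1. PFKP to PFKL, PFKFB3 to PFKFB4 and CA12 to CA9 are higher and ALDOC to ALDOA lower in both ACBI1 libraries, while EPAS1 to HIF1A spreads more within ACBI1 than between groups.

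Of 11 genes for oxygen sensing and the VHL ligase, 10 could be tested and 1 was called, ARNT2, a partner related to ARNT, which was lower. That count is near the 10.6% of all tested genes called lower. ARNT2 was at 5.64 and 44.8 CPM with DMSO and at 2.47 and 1.75 CPM with ACBI1, a log2 change of -3.57 (adjusted p 0.0469). Without DMSO replicate 2 its value was -1.41, and it was then not called, nor was it without either ACBI1 library (-3.84 and -3.36). VHL was at 141 and 140 CPM with DMSO and at 121 and 129 CPM with ACBI1, a log2 change of -0.17 (95% interval from -0.54 to 0.20, adjusted p 0.489). HIF1AN, the gene of the asparaginyl hydroxylase that blocks HIF activity, gave a log2 change of -0.042 (adjusted p 0.871).

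Of a further 30 genes known as HIF-responsive, 29 were tested. Of these, 13 fell and 2 rose, against 10.6% and 6.75% of all tested genes, so that the share called higher was near the background, with a median log2 change of -0.97. The 3 called genes with the largest fitted change are given here, of which CXCR4 passed the filter on low counts only through its DMSO libraries. MIR210HG, the host transcript of a hypoxia-induced microRNA, was at 1.89 and 2.79 CPM with DMSO and at 0.190 and 0.153 CPM with ACBI1, a log2 change of -3.75 (adjusted p 0.0058). STC1, a secreted hormone gene, was at 125 and 152 CPM with DMSO and at 3.98 and 18.7 CPM with ACBI1, a log2 change of -3.62 (adjusted p 0.0212). The chemokine receptor gene CXCR4 gave 14 and 108 counts under DMSO but 0 and 1 under ACBI1. The ratio was 123, its exact 95% counting interval being 21.7 to 4912. CXCR4 was not called without DMSO replicate 2 or without ACBI1 replicate 1. The 2 that rose, named after their values were seen, were HILPDA, a lipid droplet gene (5.74 and 6.35 against 13.0 and 15.6 CPM, log2 change 1.24, adjusted p 0.0195), and FAM162A, a mitochondrial gene (22.5 and 20.1 against 41.6 and 39.3 CPM, log2 change 0.92, adjusted p 0.0167). HILPDA was not called without ACBI1 replicate 2 (1.10) and FAM162A not without ACBI1 replicate 1 (0.88).

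On the carbon flow next to glycolysis, 11 of 18 further glycolytic genes were tested and 2 fell, PFKM and HKDC1, the latter having passed the filter on low counts only through its DMSO libraries. Over both libraries of a group, HKDC1 reached 31 counts under DMSO and 3 under ACBI1, which gives a ratio of 10.4 and an exact 95% counting interval from 3.26 to 53.4. It was called with DMSO replicate 2 left out and not with any other library left out. Over all tested genes 10.6% were called lower, and nothing is read from the counts of the short lists in this paragraph. Among 14 genes for pyruvate and lactate handling, all tested, the log2 change was negative for 7 and positive for 7 (median -0.13). Of the 14, 3 were called lower. These were PDK4 (log2 change -1.58, adjusted p 0.0381) and PDK3 (-1.25, adjusted p 0.0420), both pyruvate dehydrogenase kinases, and MPC1, part of the mitochondrial pyruvate carrier (-0.74, adjusted p 0.0467). Without DMSO replicate 2 the values of PDK4 and PDK3 were -1.06 and -0.74 and neither was called. PDK3 was also not called without either ACBI1 library, PDK4 not without ACBI1 replicate 2, and MPC1 not with any library left out. PC, the pyruvate carboxylase gene, was the 1 gene called among 3 tested gluconeogenic genes. It was at 127 and 415 CPM with DMSO and at 14.1 and 46.8 CPM with ACBI1, a log2 change of -3.15 (adjusted p 0.0379) that was -2.06 without DMSO replicate 2 and -4.28 without ACBI1 replicate 2.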

How the data were processed

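The 4 deposited files hold raw counts of reads per gene symbol in the layout of htseq-count, 1 library each. TopHat2 2.1.1, HTSeq 0.11.0 and the build hg38 are named in the submitters' processing notes, with no role or order; the annotation and the strand setting are not given in the sources used here. Without strand, reads of overlapping genes on opposite strands cannot be told apart. Reads assigned to genes made up 84.6% to 86.1% of the reads listed, and 4.41% to 5.07% fitted several genes.

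Groups and replicate numbers came from the sample titles. Genes were filtered with filterByExpr (minimum count 10, minimum total 15), which kept 19159 of 61228, and scaled by TMM. Tests were run with edgeR 4.0.16 under R 4.3.3 (glmQLFit, glmQLFTest, two-sided, treatment only), with Benjamini-Hochberg adjustment over all tested genes and a threshold of 0.05. The SE follows from the F statistic, and 95% intervals use 6.15 degrees of freedom. Counting intervals cover counting error only. Exon lengths and overlaps came from GENCODE 29, matched by symbol. The fits were tested on simulated counts. Alternatives were other scalings, filters and tools (DESeq2 1.42.0, limma-voom 3.58.1), a stricter threshold, the replicate number as a block, and each library left out.

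The genes and lists were chosen with earlier results of these data known. All 39 genes are named, and up to 3 called genes of each further list, chosen by size of change. Some others are marked as named after their values were seen.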

Additional observations from a re-analysis of the deposited data

How the results depend on the processing

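The number of called genes over the whole table, 3331, became 5518 when every gene with a count was tested, 783 at a threshold of 0.01, 7909 when the replicate number entered as a block, and 1682 to 3799 with each library left out in turn. A fit with 1 library left out assumes that the lone library of a group varies like the other group. Of the 39 genes, 12 were called lower, a number that became 7 at 0.01, 21 with the block, and 11 to 13 with a library left out. The 2 called higher became 0 at 0.01, 1 with limma-voom, 4 with the block, and 0 to 1 with a library left out. PFKFB4 (adjusted p 0.0142) was among those called lower with the block and PFKFB3 (adjusted p 0.026) among those called higher. Over all tested genes, 21.9% were called lower and 19.4% higher with the block, and 3.19% and 0.898% at 0.01. The 4 of 39 called higher with the block thus lay below the share over all tested genes. No label ties equal replicate numbers to a shared batch, and deviations of the libraries with number 1 from their group means correlated across genes at an r of 0.44. The median log2 change of the HIF-responsive genes was -1.51 when a mean of 5 CPM was required and -1.59 to -1.07 with a library left out, and that of the core enzymes was -0.38 to -0.067. With 1 count added to each gene, the log2 difference of CA12 to CA9 was 5.08 in place of 6.06. With a library left out, the log2 difference ranged from -1.34 to 0.034 for EGLN3 to EGLN1 and from -1.36 to 0.60 for EPAS1 to HIF1A. No called gene among the 39 changed sign. Of those not called, 7 did. TPI1 became 0.0071 with library size alone as the scaling, and EGLN3 became 0.035 with limma-voom. With a library left out, values ranged from -0.019 to 0.071 for ARNT, -0.70 to 0.78 for EGLN3, -0.19 to 0.33 for ANKRD37, -0.49 to 0.18 for PDK1, -0.55 to 0.17 for ALDOA, -0.17 to 0.0065 for TPI1 and -0.039 to 0.30 for PGAM1. The cause of these differences was not tested. Depth limits EGLN3 and CA9, with at most 20 and 134 counts in a library.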
